A study of Homo sapiens with 12 samples.

Results

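The AP-1 family was followed through 10 genes: FOS, FOSB, FOSL1 and FOSL2, JUN, JUNB and JUND, and BATF, BATF2 and BATF3. The genes were taken by symbol from the platform annotation of the arrays, and 10 of 10 were found, each on 1 row that carried its symbol alone. They stand beside 18404 genes named by rows with a single symbol, and beside 20546 rows that were tested because they carried any symbol. The levels come from 12 Affymetrix whole-transcript arrays of L-428 and L-1236, established human cell lines of classical Hodgkin lymphoma. Each line was transduced with tGFP alone, a fluorescent protein serving as the control, or with a construct in which an internal ribosome entry site (IRES) joins tGFP to EBF1, a transcription factor that specifies B cells. The 4 groups of 3 arrays are written as L-428 tGFP or L-428 tGFP/EBF1 for the first line and as L-1236 tGFP or L-1236 tGFP/EBF1 for the second. All groups were cultured for 8 days after transduction and sorted for tGFP, so that both controls also carry a vector and passed a sorter. The labels name the 3 samples of a group as independent without saying that they were separate cultures, so the p-values measure the spread between these samples, which may be technical.

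AP-1 is a dimer of basic leucine zipper (bZIP) proteins. FOS proteins pair only with a partner such as a JUN protein, JUN proteins can also pair with one another, and BATF proteins pair with JUN proteins and bind beside IRF4 or IRF8 in lymphocytes. FOS, FOSB, JUN and JUNB are immediate early genes, transcribed soon after a cell is stimulated and often for a short time. Strong JUN and JUNB expression with AP-1 binding is a known trait of the tumour cells of classical Hodgkin lymphoma, and BATF3 is also described as abundant there.

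The value of a row on an array is its deposited log2 signal, and a difference is called passing at an adjusted p of 0.05 or less in limma, fitted over all 20546 rows. Array medians lay between 7.19 and 7.31. The interquartile range of all rows was narrower on replicate 3 of L-428 tGFP (2.28) than on the other arrays of that group (2.49 and 2.47), and likewise on the first EBF1 array of L-1236 (2.17) than on its partners (2.31 and 2.26). These 2 are called the arrays of narrow range below, being narrow for their group. All L-1236 arrays lay between 2.17 and 2.31 and the other L-428 arrays between 2.42 and 2.49, so this range also differed between the lines. The row of EBF1, which the annotation shares with PDGFRB, lay between 8.34 and 8.63 in L-428 tGFP and between 12.93 and 12.98 in L-428 tGFP/EBF1, and between 7.13 and 7.24 against 13.07 and 13.27 in L-1236, in the direction of the labels. The mean log2 signal of 6 Hodgkin cell markers lay between 9.43 and 10.38 over the arrays, above every array median, whereas the means of 4 measured B-cell markers (6.84 to 7.70), 5 T-cell markers (6.32 to 6.53), 5 myeloid markers (6.48 to 6.73), 2 erythroid markers (6.65 to 6.87) and 3 stromal markers (7.09 to 7.27) lay around or below the medians. Single markers departed from these means. Of the Hodgkin cell markers, the chemokine gene CCL22 had a mean of 7.07 in L-428 tGFP. TRAF1 had means of 7.43 in L-1236 tGFP and 7.31 in L-1236 tGFP/EBF1. Of the B-cell markers, PAX5 had means of 9.51 and 9.37 in these 2 groups, and CD79A had 8.19 in the latter. With EBF1, 1 of 6 Hodgkin cell markers passed as higher in L-428 (CCL22, by 1.03) and 2 of 6 in L-1236 (CCL22 by 1.53 and TNFRSF8 by 0.51). Of the B-cell markers 1 of 4 passed in L-428 and 2 of 4 in L-1236, all higher. Over all rows tested, 2.62% passed as higher in L-428 and 3.69% in L-1236. In L-1236 1 of 5 T-cell and 1 of 5 myeloid markers passed too, also as higher, and the part of these movements in the results that follow was not tested.

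The proximal promoters of FOS, FOSB, JUN and JUNB are printed here because these are the members whose signal was higher in L-428 than in L-1236. They are the 250 bases before the transcription start in RefSeq, assembly GRCh38.p14, read 5′ to 3′ on the strand of the gene, at chr14:75278578-75278827 (plus strand) for FOS, chr19:45467746-45467995 (plus) for FOSB, chr1:58784048-58784297 (minus) for JUN and chr19:12791236-12791485 (plus) for JUNB. Capitals mark a CRE half-site TGACG, a CRE-type site TGACNTCA or a TATA box TATAAA, searched on both strands.
FOS: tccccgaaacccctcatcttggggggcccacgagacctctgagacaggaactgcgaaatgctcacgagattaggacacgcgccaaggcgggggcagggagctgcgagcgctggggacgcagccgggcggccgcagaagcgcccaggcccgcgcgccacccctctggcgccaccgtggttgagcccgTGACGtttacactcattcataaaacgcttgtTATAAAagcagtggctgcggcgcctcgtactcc
FOSB: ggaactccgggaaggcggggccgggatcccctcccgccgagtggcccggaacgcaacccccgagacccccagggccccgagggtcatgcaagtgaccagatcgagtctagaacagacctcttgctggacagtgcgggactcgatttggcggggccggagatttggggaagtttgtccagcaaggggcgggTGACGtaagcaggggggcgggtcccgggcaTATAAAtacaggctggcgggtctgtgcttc
JUN: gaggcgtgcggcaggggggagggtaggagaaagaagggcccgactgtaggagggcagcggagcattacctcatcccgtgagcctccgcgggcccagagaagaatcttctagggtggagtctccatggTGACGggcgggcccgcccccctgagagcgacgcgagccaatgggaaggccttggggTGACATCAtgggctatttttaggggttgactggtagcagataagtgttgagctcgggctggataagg
JUNB: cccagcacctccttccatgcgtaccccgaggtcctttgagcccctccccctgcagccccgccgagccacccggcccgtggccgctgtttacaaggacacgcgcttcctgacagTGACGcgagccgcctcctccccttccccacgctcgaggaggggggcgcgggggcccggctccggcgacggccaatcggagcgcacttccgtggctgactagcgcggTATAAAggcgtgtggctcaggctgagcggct
The half-site of FOS lay 64 to 60 bases before its start and the TATA box 33 to 28 bases before it, and FOSB carried the same pair at 60 to 56 and 30 to 25 bases. JUN held the CRE-type site TGACATCA at 67 to 60 bases before the start, besides a half-site farther out. The RefSeq promoter table held 8 of the 10 members, without FOSL1 and BATF3. TGACG was present in 6 of these 8 promoters, in all but BATF and BATF2, against 21.2% of the 35116 promoters in the table. The CRE-type site, whose form TGACGTCA contains the half-site, was present in JUN, JUND and BATF2, 3 of 8, against 6.87% of all promoters. TATAAA was found in FOS, FOSB and JUNB, 3 of 8, against 10.7%. The consensus AP-1 site TGACTCA (4.2% of all promoters) and the EBF core TCCCNNGGG (7.84%) were in 0 of the 8 windows, which says only that those letters are not within these 250 bases. Such matches describe letters and not bound sites.

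FOS, the founding member of the family, whose protein needs a JUN partner to bind DNA, was the member that rose in L-428 cells carrying EBF1. Its signal (row 7975779) was 8.92, 8.83 and 8.39 on the L-428 tGFP arrays and 9.82, 9.72 and 9.71 on the L-428 tGFP/EBF1 arrays. The lowest EBF1 array lay well above the highest control array, and the EBF1 arrays lay close together. Means were 8.71 ± 0.28 and 9.75 ± 0.059 (SD, n = 3), a rise of 1.04 on the log2 scale, or 2.05-fold (standard error 0.10, 95% interval 0.82 to 1.25; limma, adjusted p = 3.13e-06). It was the 14th largest rise among the 20546 rows. The control group was the wider one because of replicate 3, the array of narrow interquartile range. That array was the lowest of its group for 6 of the 10 members, against 3 and 1 for the others, and the mean over the members was 8.77 on it and 8.94 and 8.96 on the others. Without it the rise in FOS was 0.87, which passed the test but not 2-fold, as did 0.90 with array weights. The adjusted p for FOS stayed between 4.3e-08 and 0.000151 (limma) over 16 of 16 alternatives, which were other scalings, row filters, weights and left-out arrays.

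In L-1236 the FOS signal was 7.32, 7.35 and 7.10 with tGFP and 7.49, 7.49 and 7.50 with tGFP/EBF1. The groups did not overlap here either, but the distance was small, 0.23 on the log2 scale or 1.18-fold (95% interval 0.022 to 0.45; limma, adjusted p = 0.183), and it did not pass. It passed in 2 of 16 alternatives, with array weights (limma, adjusted p = 0.0114) and with both arrays of narrow range left out (limma, adjusted p = 0.0363). The EBF1 effect on FOS was larger in L-428 than in L-1236 by 0.80 (standard error 0.14, 95% interval 0.50 to 1.10; limma, adjusted p = 0.00216), and this difference passed in 21 of 21 alternatives, with values between 0.64 and 0.90. In L-1236 tGFP the mean of FOS, 7.26, lay close to the medians of those arrays, 7.29 on each. The part of this low level in the difference was not tested. Ordered by level, FOS ran from L-1236 tGFP (7.26) over L-1236 tGFP/EBF1 (7.49) and L-428 tGFP (8.71) to L-428 tGFP/EBF1 (9.75). The first 2 of these neighbours did not differ beyond the threshold, the last 2 did, and the arrays of the middle pair, which was not tested, did not overlap.

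**Figure D1:**
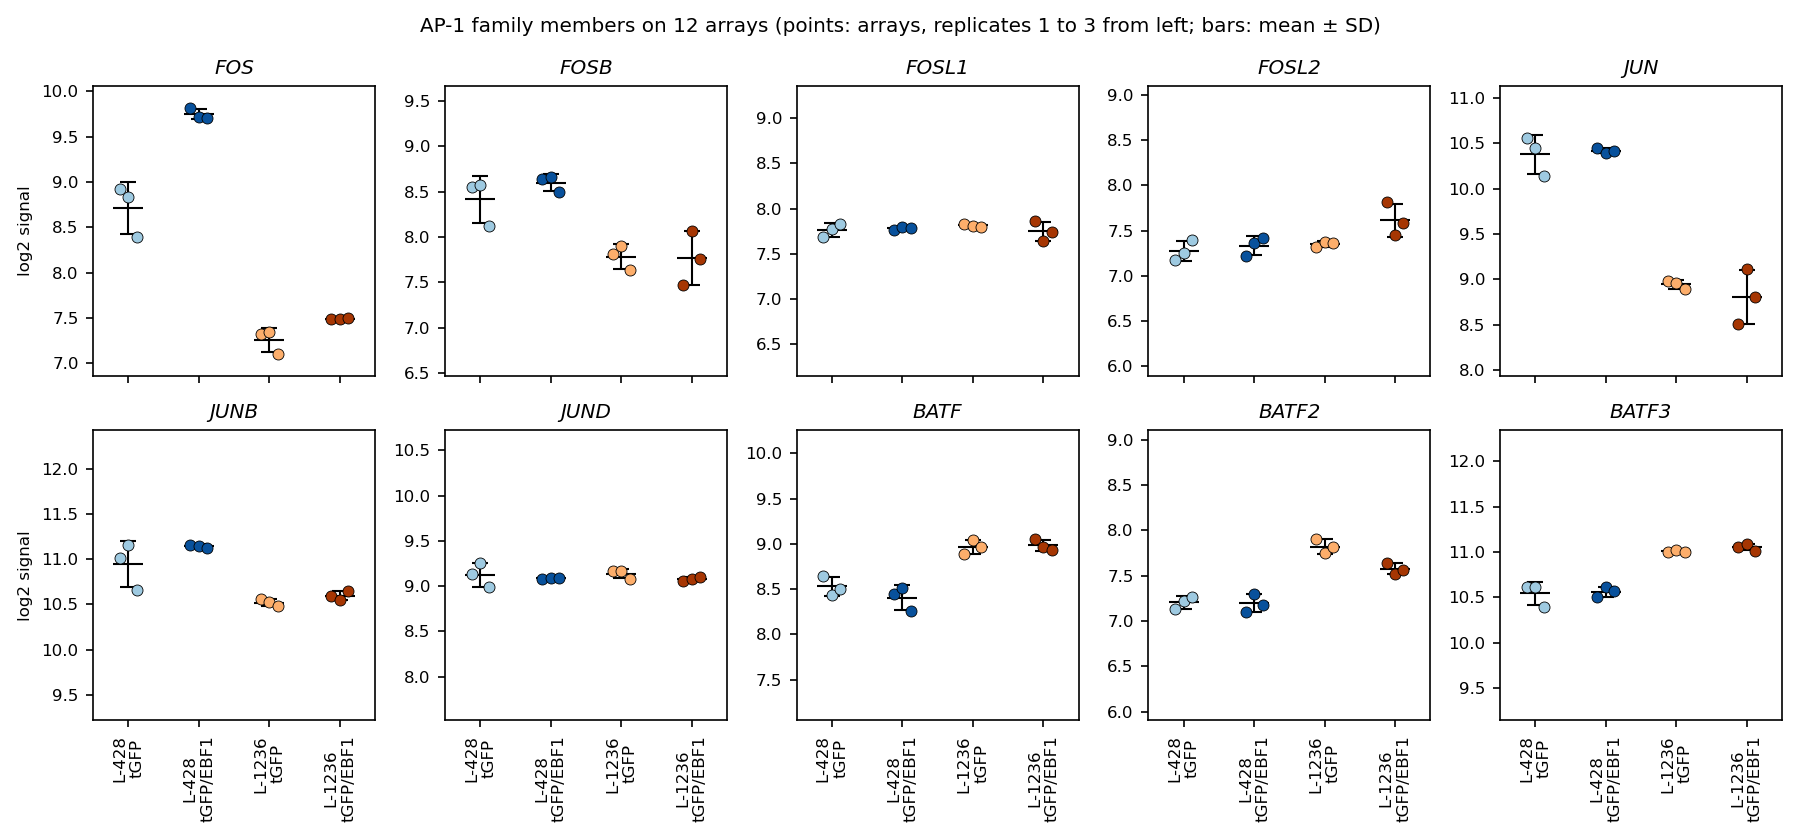
Log2 signal of each of the 10 AP-1 genes on the 12 arrays, 1 panel per gene with a y axis of equal length, points for single arrays and bars for the means of the 3 arrays of a group. FOS stands highest in L-428 tGFP/EBF1 (9.71 to 9.82), and FOS and JUN are higher in both L-428 groups than in both L-1236 groups.

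The other FOS genes did not pass with EBF1 in either line. FOSB, which is induced together with FOS in many cells, read 8.56, 8.57 and 8.12 in L-428 tGFP and 8.64, 8.66 and 8.49 in L-428 tGFP/EBF1. The groups overlapped through replicate 2 and replicate 1 of the controls, which lay above replicate 3 with EBF1, and the difference was 0.18 (95% interval -0.084 to 0.45; limma, adjusted p = 0.636). In L-1236 FOSB lay between 7.63 and 7.90 with tGFP and spread from 7.47 to 8.07 with tGFP/EBF1, overlapping ranges with a difference of -0.018 (95% interval -0.29 to 0.25; limma, adjusted p = 0.965). Replicate 1 of L-1236 tGFP/EBF1, the other array of narrow range, held the lowest of these values. FOSL1, which encodes FRA-1, was nearly level over the whole experiment, with group means between 7.75 and 7.81 and EBF1 differences of 0.018 (95% interval -0.11 to 0.15) and -0.068 (95% interval -0.20 to 0.066).

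FOSL2, which encodes FRA-2, was level in L-428 and somewhat higher in L-1236 with EBF1. Its L-1236 signal was 7.31, 7.37 and 7.36 with tGFP and 7.81, 7.45 and 7.58 with tGFP/EBF1. All 3 EBF1 arrays lay above the controls, with replicate 1 farthest. The difference of 0.26 (95% interval 0.088 to 0.44; limma, adjusted p = 0.0554) missed the threshold, and it passed in 7 of 16 alternatives, at the lowest adjusted p with array weights (limma, 0.00519). Without replicate 1 of L-1236 tGFP/EBF1, an array of narrow range, the difference was 0.16 and did not pass. The highest adjusted p over the alternatives was 0.271 (limma). In L-428 the means were 7.28 ± 0.11 and 7.33 ± 0.11 (SD, n = 3), a difference of 0.056 (limma, adjusted p = 0.914). The difference between the lines in the FOSL2 effect was -0.21 (limma, adjusted p = 0.423).

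The JUN genes, whose proteins are the usual partners of FOS, did not pass with EBF1 in either line. JUN (row 7916609) read 10.56, 10.45 and 10.14 in L-428 tGFP against 10.45, 10.40 and 10.41 in L-428 tGFP/EBF1. The EBF1 arrays fell inside the range of the controls, and the difference was 0.039 (95% interval -0.20 to 0.28; limma, adjusted p = 0.966). In L-1236 JUN read 8.99, 8.96 and 8.89 with tGFP and 8.51, 9.11 and 8.81 with tGFP/EBF1. Here the EBF1 arrays were the scattered ones and lay on both sides of the controls, a difference of -0.14 (95% interval -0.38 to 0.10; limma, adjusted p = 0.570). The lowest of them was replicate 1, one of the arrays of narrow range, and without it the difference was 0.012.

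JUNB, described in Hodgkin lymphoma beside JUN, lay between 10.66 and 11.16 in L-428 tGFP and between 11.12 and 11.16 in L-428 tGFP/EBF1. Its difference of 0.20 (95% interval 0.011 to 0.38; limma, adjusted p = 0.304) was 0.056 without replicate 3 of the control, the lowest of the L-428 arrays. In L-1236 the JUNB arrays spanned 10.48 to 10.56 with tGFP and 10.55 to 10.65 with tGFP/EBF1, a difference of 0.075 (limma, adjusted p = 0.715). JUND, the JUN gene that is usually expressed without a stimulus, had group means between 9.08 and 9.14 in all 4 groups. Its EBF1 differences were -0.036 in L-428 (95% interval -0.17 to 0.10) and -0.059 in L-1236 (95% interval -0.20 to 0.077).

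Among the BATF genes, whose proteins lack the transactivation domain of FOS, BATF2 fell in L-1236 with EBF1. BATF2 (row 7949340) read 7.90, 7.75 and 7.81 in L-1236 tGFP and 7.64, 7.52 and 7.56 in L-1236 tGFP/EBF1. Every EBF1 array lay below every control array. The means of 7.82 ± 0.079 and 7.57 ± 0.060 (SD, n = 3) differ by -0.25, or 1.19-fold (95% interval -0.39 to -0.11; limma, adjusted p = 0.0235), far from 2-fold. The call was lost when all rows were tested (limma, adjusted p = 0.0553), without replicate 1 (0.124) or replicate 3 (0.0681) of L-1236 tGFP, and without replicate 2 (0.0694) or replicate 3 (0.0816) of L-1236 tGFP/EBF1. In L-428 BATF2 was lower at the start, 7.21 ± 0.069, and 7.20 ± 0.10 with EBF1, a difference of -0.011 (95% interval -0.15 to 0.13; limma, adjusted p = 0.984). The effects in the lines differed by 0.24 (95% interval 0.037 to 0.43; limma, adjusted p = 0.189), so that a difference in response was not shown.

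BATF, the best known partner of IRF4 at composite sites in lymphocytes, read 8.65, 8.44 and 8.51 in L-428 tGFP and 8.44, 8.52 and 8.26 in L-428 tGFP/EBF1. The groups overlapped, with a difference of -0.12 (95% interval -0.28 to 0.032; limma, adjusted p = 0.537). In L-1236 its means were 8.97 ± 0.075 and 8.98 ± 0.059 (SD, n = 3). The start of BATF lies 244 kb from that of FOS on chromosome 14. BATF3 was level with EBF1 within each line, with means of 10.54 ± 0.12 and 10.56 ± 0.054 in L-428 and of 11.01 ± 0.0089 and 11.05 ± 0.035 in L-1236. Its EBF1 differences were 0.018 (95% interval -0.12 to 0.15) and 0.042 (95% interval -0.093 to 0.18).

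Counted over the family, 1 of 10 members passed in L-428, FOS, which was higher and at least 2-fold. Over all rows tested, 2.62% passed as higher and 1.72% as lower, and 0.0779% and 0.0195% did so with 2-fold or more. The balance of the passing rows in L-428, 538 higher and 354 lower, turned to 464 and 843 without replicate 3 of L-428 tGFP, to 703 and 1281 with both arrays of narrow range left out and to 1090 and 1502 with array weights. In L-1236 1 of 10 passed, BATF2, which was lower and under 2-fold, beside 3.69% of rows higher, 5.95% lower, 0.0876% higher by 2-fold and 0.0584% lower by 2-fold. At an unadjusted p under 0.05 limma gave 2 members higher and 0 lower in L-428, and 2 higher and 1 lower in L-1236. The median EBF1 difference over the members was 0.029 in L-428 and 0.00029 in L-1236, and over all rows 0.0037 and 0.0080. For the difference between the lines in the EBF1 effect 1 of 10 members passed, FOS, with a positive value, against 3.38% of rows with a positive and 1.79% with a negative value. That balance, 694 positive and 367 negative, became 701 and 756 without replicate 3 of L-428 tGFP. The median over members was 0.10 and over all rows -0.0025. The members passing in L-1236 numbered between 0 and 3 over the alternatives.

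**Figure D2:**
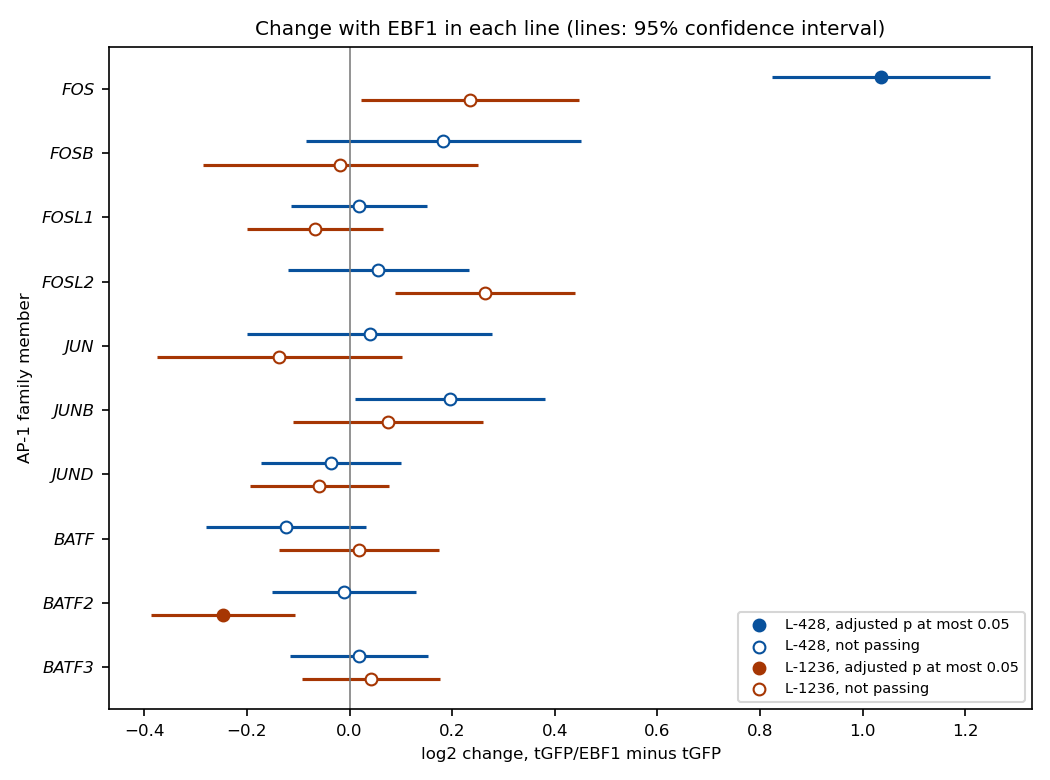
EBF1 effect (tGFP/EBF1 minus tGFP, log2) of each AP-1 gene in L-428 and in L-1236, with bars for the 95% intervals. FOS in L-428 stands apart at 1.04, and the other members lie between -0.25 and 0.26 in both lines.

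The lines differed in the family without EBF1. With tGFP alone, FOS, FOSB, JUN and JUNB were higher in L-428 and BATF, BATF2 and BATF3 were higher in L-1236. FOS was 1.46 higher in L-428 on the log2 scale, or 2.75-fold (standard error 0.10; limma, adjusted p = 4.1e-10), and JUN was 1.43 higher, or 2.70-fold (standard error 0.11; limma, adjusted p = 2.76e-09). FOSB was higher by 0.63 (limma, adjusted p = 0.000319) and JUNB by 0.43 (limma, adjusted p = 0.000421). These 4 are the members introduced as immediate early genes. Of 13 other immediate early genes measured, which are listed further on, 3 passed as higher in L-428 with tGFP and 5 as lower. For each of the 4 members the lowest L-428 tGFP array lay above the highest L-1236 tGFP array.

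The BATF genes ran the other way with tGFP alone. As L-428 minus L-1236, BATF differed by -0.44 (limma, adjusted p = 5.76e-05), BATF2 by -0.62 (limma, adjusted p = 2.16e-07) and BATF3 by -0.47 (limma, adjusted p = 4.37e-06), again without overlap of arrays. The share of all rows that separate the lines in this way was not counted, so whether the lack of overlap is particular to the family is not known. FOSL1 (-0.050, adjusted p = 0.576), FOSL2 (-0.072, adjusted p = 0.545) and JUND (-0.014, adjusted p = 0.892) did not pass in limma. In all, 7 of 10 members passed, 4 higher and 3 lower in L-428, of which FOS and JUN by 2-fold. Differences of this kind were common: 26.1% of all rows passed as higher in L-428 and 21.7% as lower, and 4.16% and 3.04% by 2-fold. The median over the members was -0.032 and over all rows -0.0063. In RNA from a whole sample, a difference in level may come from fewer cells with the transcript or from less of it in each cell, which cannot be told apart.

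With EBF1 in both lines the same direction was measured for each of these 7 members in arrays that the tGFP comparison did not use. FOS was 2.26 higher in L-428, or 4.78-fold (limma, adjusted p = 6.39e-13), and JUN 1.61 higher, or 3.05-fold (limma, adjusted p = 4.9e-10). FOSB was higher by 0.83 and JUNB by 0.55, while BATF (-0.58), BATF2 (-0.38) and BATF3 (-0.49) were lower, each with an adjusted p of at most 7.88e-05 (limma). FOSL2 also passed here with -0.28, the lower level being that of L-428 (limma, adjusted p = 0.00876), but not without replicate 1 of L-428 tGFP/EBF1 (0.0602) or replicate 1 of L-1236 tGFP/EBF1 (0.0664). JUND differed by 0.0083 and FOSL1 by 0.036, neither of which passed, although JUND passed as lower after quantile normalization (-0.16; limma, adjusted p = 0.0185). In all, 8 of 10 members passed, 4 higher and 4 lower, beside 28.2% of rows higher and 22.3% lower, and 2 of them by 2-fold, beside 4.85% and 2.8%. Centring each array on its median moved the passing rows of this comparison from 5795 higher and 4586 lower to 6540 and 3300. The median was 0.022 over the members and -0.031 over all rows. After quantile normalization JUNB differed by 0.27 with tGFP and 0.35 with EBF1, and BATF3 by -0.63 and -0.68. JUNB and BATF3 passed in 16 of 16 alternatives in each comparison.

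**Figure D3:**
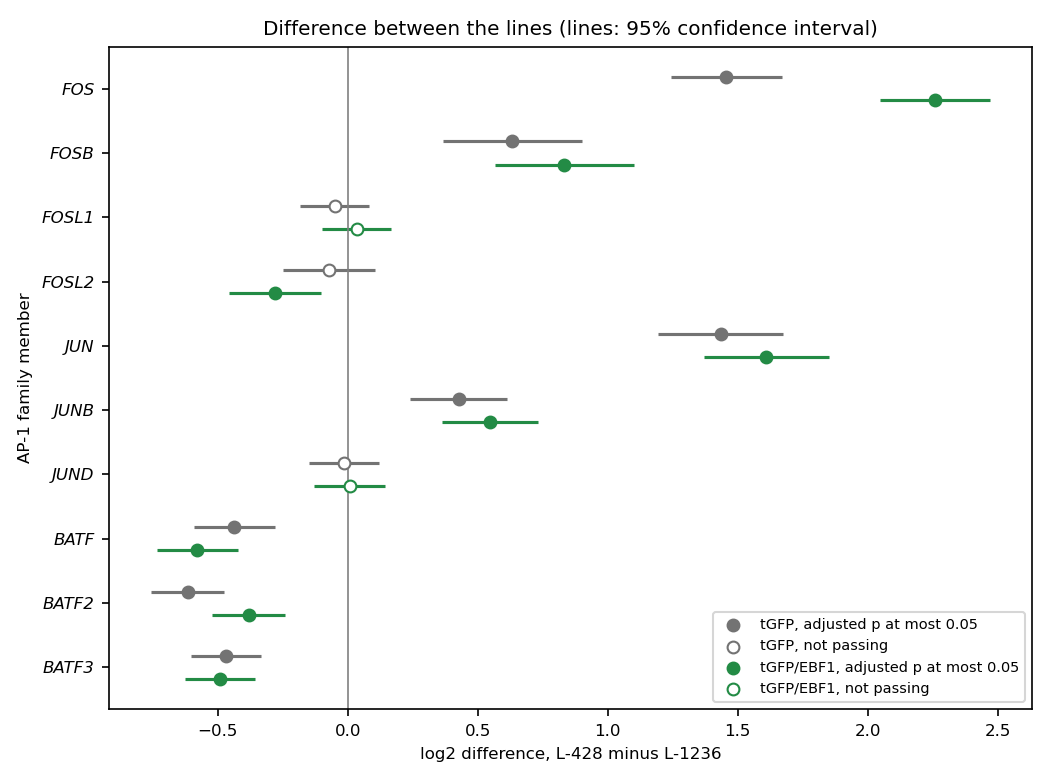
Difference between the lines (L-428 minus L-1236, log2) for each AP-1 gene with tGFP and with tGFP/EBF1, with bars for the 95% intervals. FOS, FOSB, JUN and JUNB lie right of 0 in both comparisons (FOS at 1.46 and 2.26), BATF, BATF2 and BATF3 left of it, and FOSL1 and JUND near it.

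Likeness to FOS was measured as the root mean square difference between rows over the 12 arrays, each row centred on its own mean, and FOS was the only member that qualified by passing with EBF1 and spanning at least 1 log2 unit between groups. DOCK8, an exchange factor for CDC42 in leukocytes, was nearest, at 0.152 log2 units. TAAR6, a trace amine receptor, followed at 0.186 and FRG2C at 0.203, and the signal of FRG2C is uncertain because near-identical copies of that gene exist. DOCK8 read 8.14, 8.12 and 7.99 in L-428 tGFP and 9.04, 8.96 and 9.01 in L-428 tGFP/EBF1. In L-1236 it stayed between 6.40 and 6.63 on all 6 arrays. The EBF1 differences of these 3 genes in L-428 were 0.92, 0.91 and 0.76, and in L-1236 they were 0.13, -0.015 and 0.038. They were selected for this pattern, and their values describe it.

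**Figure D4:**
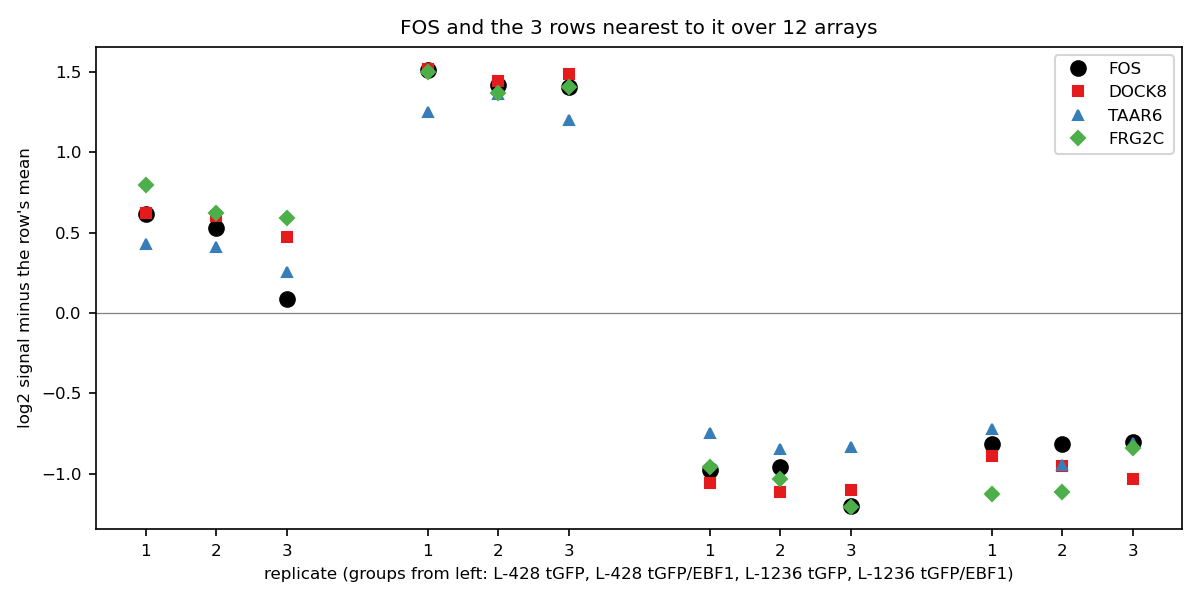
Log2 signal of FOS and of the 3 rows nearest to it, each centred on its mean over the 12 arrays, with the arrays in 4 groups along the x axis. All 4 genes are highest on the L-428 tGFP/EBF1 arrays and low on both L-1236 groups.

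The other genes of the pathway were read in 5 lists, starting with the bZIP proteins that dimerize or compete with AP-1. The lists were chosen with earlier results of these data known. A list count beside the share of all rows is therefore a description and not a test. Of 17 listed, 15 were measured. In L-428 2 of 15 rose with EBF1 and the other 13 did not pass, beside 2.62% of all rows higher. In L-1236 4 of 15 fell and the other 11 did not pass, beside 5.95% of all rows lower. NFIL3, a repressor of this class, read 10.06, 10.18 and 9.84 against 9.98, 9.94 and 9.93 in L-428. In L-1236 it went from 9.19, 9.34 and 9.42 to 8.55, 8.78 and 8.81, which do not overlap, a change of -0.61 (limma, adjusted p = 0.000102). CEBPB, a C/EBP factor that can pair with ATF and AP-1 proteins, fell in L-1236 by 0.39 (limma, adjusted p = 0.00281) and differed by 0.26 in L-428 (limma, adjusted p = 0.0801). ATF7, a relative of ATF2, fell in L-1236 by 0.30 (limma, adjusted p = 0.0110). DDIT3, the stress-induced factor CHOP, rose in L-428 from 10.34 ± 0.16 to 10.81 ± 0.0050 (SD, n = 3), a change of 0.46 (limma, adjusted p = 0.000349), and differed by 0.038 in L-1236. For the difference between the lines (L-428 minus L-1236) 5 of 15 passed, all with a positive value, beside 3.38% of all rows. For DDIT3 and ATF3 the passing change was a rise in L-428, and for NFIL3, CEBPB and MAFG a fall in L-1236. The rise of ATF3 passed in 7 of 16 alternatives and the fall of MAFG in 9 of 16. The changes of DDIT3, NFIL3 and CEBPB passed in 16 of 16. The list median was 0.19 against -0.0025 over all rows, and the count was 1 of 15 after median centring and 3 of 15 with all rows tested. In L-428 the count was 5 of 15 after quantile normalization, 4 of them higher, while the rows passing as higher went from 538 to 964. Leaving out any 1 of the 3 L-428 tGFP/EBF1 arrays left 1 of 15 in L-428, and without replicate 1 or replicate 2 of L-1236 tGFP 2 of 15 passed in L-1236, the former also leaving 3 of 15 for the difference.

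The factors that bind next to AP-1 (IRF, NFAT, ETS and RUNX proteins, 9 of 9 measured) held 1 that rose in each line, where the shares of all rows that rose were 2.62% (L-428) and 3.69% (L-1236). The count in L-1236 was 6 of 9, all higher, after quantile normalization and again with array weights, and 3 of 9 with both arrays of narrow range left out. Over all rows, the number passing as higher in L-1236 went from 759 to 1445, 2232 and 1222 in these settings. RUNX1, a haematopoietic transcription factor, rose in L-1236 from 7.67, 7.73 and 7.73 to 8.49, 8.54 and 8.47, a change of 0.79 (limma, adjusted p = 6.67e-07). In L-428 it differed by -0.20 (limma, adjusted p = 0.153), and the difference between the lines was -0.99 (limma, adjusted p = 9.22e-06). IRF8, a partner of BATF proteins on DNA, rose in L-428 from 10.04 ± 0.19 to 10.50 ± 0.050 (SD, n = 3), a change of 0.46 (limma, adjusted p = 0.00114), and differed by 0.22 in L-1236 (limma, adjusted p = 0.0850). Without replicate 3 of L-428 tGFP 3 of 9 passed in L-428, 1 higher and 2 lower.

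Of 15 measured among 20 listed MAP kinases, their activators and ternary complex factors, which carry signals to the promoters of FOS and JUN, 0 passed with EBF1 in L-428 (limma; 1 higher and 1 lower at an unadjusted p under 0.05). Without replicate 3 of L-428 tGFP 2 of 15 passed there, both lower. In L-1236 1 of 15 rose and 1 fell, beside 3.69% and 5.95% of all rows, and 4 of 15 passed with array weights, 3 of them lower. Array weights took the rows passing as lower in L-1236 from 1222 to 2944. MAPK3, the kinase ERK1, fell in L-1236 by 0.35, from 11.24 ± 0.089 to 10.89 ± 0.024 (SD, n = 3; limma, adjusted p = 0.00444). MAPK10, the kinase JNK3, rose there by 0.23 (limma, adjusted p = 0.0441), from a mean of 6.61 to 6.84, both below every array median. It did not pass without replicate 2 or 3 of L-1236 tGFP or without replicate 2 or 3 of L-1236 tGFP/EBF1 (limma, adjusted p up to 0.191). Transcript levels do not give kinase activity.

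Of 13 measured among 15 listed other immediate early genes, which respond to the same stimuli as FOS, 4 rose in L-428 with EBF1 and 9 did not pass, beside 2.62% of all rows higher. EGR1, a zinc finger factor, read 10.83, 10.73 and 10.45 with tGFP and 11.30, 11.15 and 11.02 with tGFP/EBF1. All 3 EBF1 arrays lay above the controls, a change of 0.49 (limma, adjusted p = 0.00923). IER3, an inducible survival gene, rose by 0.48 (limma, adjusted p = 0.00338), KLF6 by 0.40 (limma, adjusted p = 0.00213) and IER2 by 0.25 (limma, adjusted p = 0.0445). In L-1236 2 of 13 rose, beside 3.69% of all rows, KLF6 by 0.26 and IER2 by 0.22, whereas EGR1 differed by 0.080 and IER3 by 0.0025. The list median was 0.050 in L-428 and 0.060 in L-1236, against 0.0037 and 0.0080 over all rows. Replicate 3 of L-428 tGFP was the lowest control array for EGR1, IER3, KLF6 and IER2 as it was for FOS, and without it EGR1, IER3 and KLF6 still passed while IER2 did not (0.18; limma, adjusted p = 0.104). IER2 passed in L-428 in 7 of 16 alternatives. Without replicate 1 of L-428 tGFP/EBF1 2 of 13 passed in L-428, and EGR1 was not among them (limma, adjusted p = 0.0691). In L-1236 5 of 13 passed with array weights, 3 of them higher, while the rows passing as higher went from 759 to 2232. The count in L-1236 was 0 of 13 after median centring and with all rows tested. It was also 0 of 13 without any 1 of 4 arrays, replicates 2 and 3 of tGFP and replicates 1 and 2 of tGFP/EBF1. Without replicate 1 of tGFP or replicate 3 of tGFP/EBF1 it was 1 of 13.

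A list of 17 AP-1 targets and genes tied to AP-1 in Hodgkin lymphoma was measured in full. In L-428 4 rose and 1 fell with EBF1, beside 2.62% of all rows higher and 1.72% lower, and in L-1236 7 rose and 2 fell, beside 3.69% and 5.95%. The balance in L-428 was 6 higher and 5 lower with array weights, and 4 higher and 5 lower with both arrays of narrow range left out. Over all rows it was 1090 and 1502 with array weights, and 703 and 1281 with both arrays left out. CD274, which encodes PD-L1 and has an AP-1 enhancer described in Hodgkin lymphoma, read 8.31, 8.22 and 8.22 with tGFP and 9.22, 9.22 and 9.04 with tGFP/EBF1 in L-428, a rise of 0.91 (limma, adjusted p = 6.49e-08). In L-1236 its values were 10.30, 10.21 and 10.34 against 10.85, 11.01 and 10.88, a rise of 0.63 (limma, adjusted p = 4.12e-06). CD274 was higher in L-1236 than in L-428 with tGFP alone (-2.03 as L-428 minus L-1236; limma, adjusted p = 7.13e-15), opposite to FOS and JUN. The list did not run 1 way in that comparison: 6 of 17 targets passed as higher in L-428 and 5 as lower, beside 26.1% and 21.7% of all rows. NGFR, the low-affinity neurotrophin receptor, rose in L-1236 by 0.66 (limma, adjusted p = 7.36e-07). TNFRSF8, the gene of the Hodgkin marker CD30 with an AP-1 site described in its promoter, rose there by 0.51 (limma, adjusted p = 6.54e-05). In L-428 NGFR differed by 0.16 and TNFRSF8 by 0.041, and neither passed. CD44, an adhesion receptor, rose in L-428 by 0.47 (limma, adjusted p = 0.00105) and differed by 0.058 in L-1236. The target that fell in L-428 was the cytokine gene IL13 (-0.30; limma, adjusted p = 0.00692), which also fell in L-1236 (-0.39; limma, adjusted p = 0.000317). Its means were 7.82 and 7.52 in L-428 with tGFP and with tGFP/EBF1, and 7.26 and 6.87 in L-1236. The L-1236 means lay below the medians of the L-1236 arrays (7.27 to 7.31), a low signal. Without replicate 1 of L-428 tGFP/EBF1 3 of 17 passed in L-428.

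**Figure D5:**
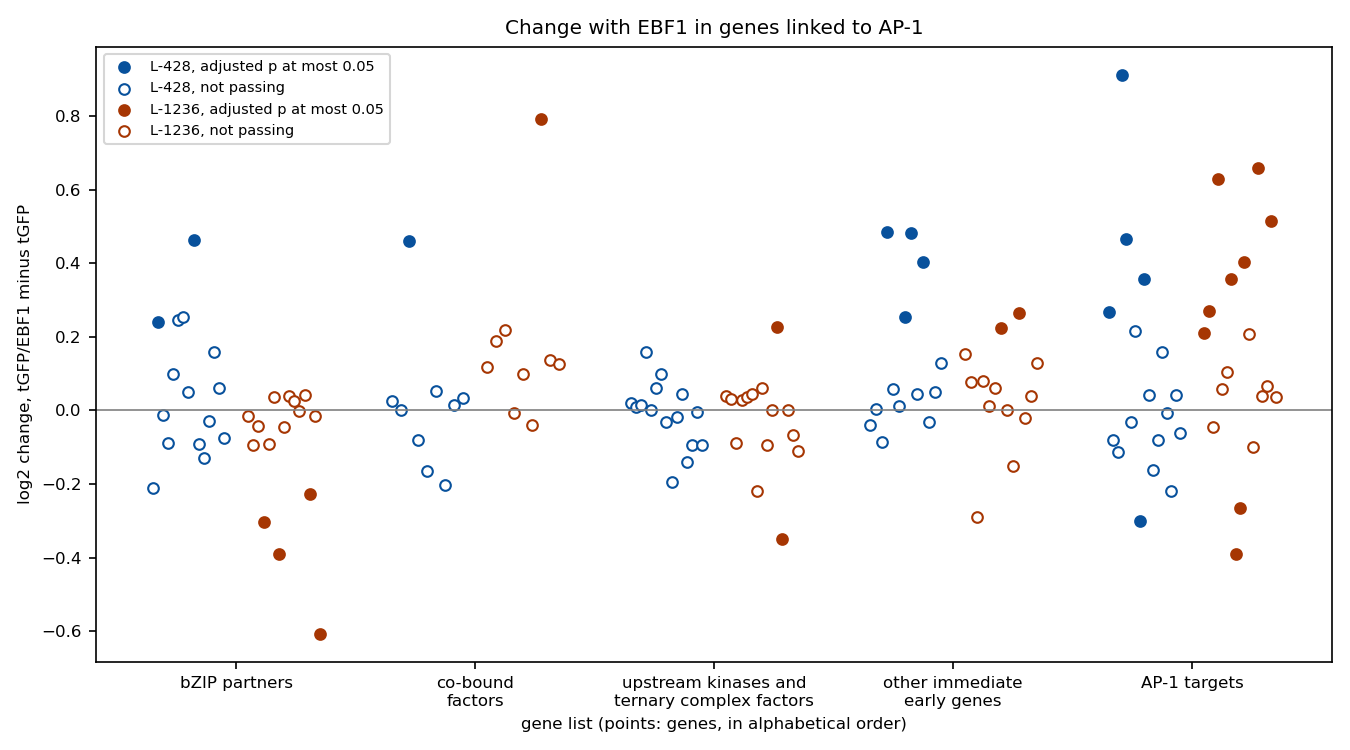
EBF1 effect (log2) in L-428 and in L-1236 of all measured genes in the 5 lists linked to AP-1, with filled points where the adjusted p of limma was 0.05 or less. CD274 is filled in both lines (0.91 and 0.63), NFIL3 lies at -0.61 in L-1236, and RUNX1 at 0.79 in L-1236 and -0.20 in L-428.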

How the data were processed

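Per the labels' protocols, RNA of sorted tGFP-positive cells was amplified, biotin-labelled and hybridized to whole-transcript arrays. The authors deposited 1 log2 value per row and array; no source used here gives the summarization, the normalization, the array build or the log base, which was read as 2 because a value of 14.3 on another base would exceed a 16-bit scanner's range. The number of arrays limits the precision.

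By the platform annotation, 19158 of 32321 rows carry 1 symbol, 1388 carry more and 11775 carry 0. Gene IDs of 19128 rows with 1 symbol matched RefSeq (GRCh38.p14), and 0 symbols changed. The 20546 rows with a symbol were fitted in limma 3.58.1 under R 4.3.3 (lmFit, eBayes, 4 group means, 8 residual and 9.98 prior degrees of freedom, no block). P-values were Benjamini-Hochberg adjusted within each contrast. A row passed at an adjusted p of 0.05 or less, with 2-fold as a further limit, both stated in the series' design text. The fit was tested on simulated data.

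The members and lists were chosen with earlier results of these data known. Named were all members, EBF1, up to 4 passing genes per list by largest EBF1 change, and the 3 rows most like a qualifying member. IL13 was named besides, as a target that fell. Some items are not reported here. Alternatives were quantile normalization, median centring, dim rows left out, all rows or rows with 1 symbol, trend and robust variance, array weights (gene-by-gene method), only the 6 arrays compared, a replicate block, each array left out, and both arrays of narrow interquartile range left out. Python 3.11.15 with matplotlib 3.10.9 drew the figures.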

Additional observations from a re-analysis of the deposited data

Results flagged for a closer look

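For 12 of the members and listed genes, the EBF1 effect differed between L-428 and L-1236 in a direct test of the difference (L-428 minus L-1236, log2; limma, adjusted p of 0.05 or less). Over all rows, 3.38% passed with a positive and 1.79% with a negative value. The 12 included 1 of 10 members, 5 of 15 bZIP proteins and 1 of 9 factors that bind next to AP-1. They also included 1 of 13 other immediate early genes, 4 of 17 AP-1 targets and 0 of 15 kinases and ternary complex factors. FOS differed by 0.80 (adjusted p = 0.00216). The bZIP proteins among them were CEBPB with 0.64 (adjusted p = 0.00163), NFIL3 with 0.53 (0.0138), DDIT3 with 0.43 (0.0135), MAFG with 0.39 (0.0173) and ATF3 with 0.34 (0.0431), all with a positive value. For DDIT3 and ATF3 the EBF1 change that passed was a rise in L-428, and for CEBPB, NFIL3 and MAFG it was a fall in L-1236. Of these changes, the rise of ATF3 passed in 7 of 16 alternatives and the fall of MAFG in 9 of 16. RUNX1 differed by -0.99 (adjusted p = 9.22e-06), as its rise was in L-1236. IER3 differed by 0.48 and CD44 by 0.41 (adjusted p = 0.0359 for each). NGFR differed by -0.50 (adjusted p = 0.00177) and TNFRSF8 by -0.47 (adjusted p = 0.00768). IL6, a cytokine gene with an AP-1 site, differed by 0.62 (adjusted p = 0.00117): it rose in L-428 by 0.36 (adjusted p = 0.00689) and fell in L-1236 by 0.27 (adjusted p = 0.0262). The rise of IL6 did not pass without replicate 1 of L-428 tGFP/EBF1 (adjusted p = 0.0603), nor the fall without any 1 of 4 arrays, the 3 of L-1236 tGFP and replicate 1 of L-1236 tGFP/EBF1 (adjusted p up to 0.118). Of these genes, FOS, CEBPB, RUNX1, NGFR and IL6 passed for the difference in all 21 alternatives, whereas ATF3 passed in 9, IER3 in 10 and CD44 in 11 of 21.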

How the results depend on the processing

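Of 850 values of single members under the alternatives, 786 kept their direction and their side of the threshold, 7 no longer passed, 10 passed in addition and 47 changed sign. The last were differences that did not pass under the chosen settings and, with the exception of JUND below, did not pass after the change either; the cause was not tested. After quantile normalization BATF2 in L-428 was 0.0034, the JUND difference of effects -0.038 and JUND between lines with EBF1 -0.16 (limma, adjusted p = 0.0185). After median centring BATF2 in L-428 was 0.0039, and between lines with tGFP FOSL1 was 0.0081 and JUND 0.044. With array weights JUN (-0.058), BATF2 (0.012) and BATF3 (-0.038) changed sign in L-428, BATF (-0.040) in L-1236, JUNB (-0.041) and JUND (-0.048) in the difference of effects, and JUND between lines with tGFP (0.040) and with EBF1 (-0.0082). With both arrays of narrow range left out the values were JUN -0.080, BATF2 0.019 and BATF3 -0.053 in L-428, FOSB 0.13, JUN 0.012 and BATF -0.014 in L-1236, FOSB -0.095, JUN -0.091, JUNB -0.021 and JUND -0.055 for the difference of effects, and JUND 0.054 and -0.0011 between lines with tGFP and with EBF1.

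With 1 array left out, these differences took both signs. In L-428 the ranges were -0.023 to 0.053 for FOSL1, -0.080 to 0.13 for JUN, -0.10 to 0.028 for JUND, -0.064 to 0.035 for BATF2 and -0.053 to 0.056 for BATF3, and in L-1236 they were -0.17 to 0.13 for FOSB, -0.29 to 0.012 for JUN and -0.020 to 0.055 for BATF. For the difference of effects they were -0.019 to 0.23 for JUNB, -0.046 to 0.087 for JUND and -0.095 to 0.014 for BATF3. Between the lines, JUND ranged from -0.079 to 0.054 with tGFP and from -0.0011 to 0.020 with EBF1, and FOSL1 from -0.016 to 0.092 with EBF1.

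The count of members passing with EBF1 in L-1236 was 2 after quantile normalization, with dim rows left out, with rows of 1 symbol, with trend and robust variance, with both narrow arrays left out and with the replicate block. It was 3 with array weights and 0 with all rows, and between 0 and 1 with any 1 array left out. For the difference of effects it was 2 with array weights. Without L-1236 tGFP/EBF1 replicate 2, FOSL2 passed in place of BATF2. The other counts of members stayed within 1.5 times.

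Numbers of rows passing moved from 892 to between 463 and 2592 in L-428, from 1981 to between 1294 and 5176 in L-1236, and from 1061 to between 599 and 3194 for the difference of effects. Same-numbered arrays did not deviate together (correlations from -0.21 to 0.233 in L-428 and from -0.0744 to 0.283 in L-1236), so that the labels' numbers were not used as pairs. Of the 6 arrays of a line, 2 in L-428 and 3 in L-1236 correlated best with their own number. The replicate block gave 1 member passing in L-428, 2 in L-1236 and 1 for the difference. The EBF1 row has 2 symbols and no value with rows of 1 symbol, and the difference of effects could not be fitted from the arrays of 1 line. With 3 arrays in a group, the members' differences had a median standard error of 0.079.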
